A study of Mus musculus with 6 samples.

Results

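NRF2, encoded by Nfe2l2, and 9 genes that it is known to switch on were followed in tumor endothelial cells (TECs) with and without activated Notch signaling. The 9 targets were Hmox1, Nqo1, Gclm, Gclc, Txnrd1, Srxn1, Slc7a11, Gsr and Prdx1. The genes were chosen by name, as 10 of the 23473 RefSeq rows in a table of 56826 rows, and all 10 were found. TECs were captured with CD31-coated magnetic beads from Lewis lung carcinoma (LLC) tumors that had been grown in C57BL/6 mice, and their RNA was sequenced in bulk after depletion of ribosomal RNA. The 3 NICeCA libraries came from mice with Cdh5 cre ERT2, a tamoxifen-activated Cre recombinase under the promoter of an endothelial junction gene, and a Rosa26 flox-stop-flox allele that then produces the Notch1 intracellular domain (ICD). The 3 Ctrl libraries came from mice that the labels call wild type, with no word on Cre or tamoxifen in these animals. All 6 are labelled 8 weeks of age, and all were hosts of a mouse tumor line implanted under the skin. The study's methods speak of pairs of mice, so each library is taken as 1 mouse, although no label names the animal. The labels describe the captured cells as mostly endothelial by flow cytometry and speak of dissection on more than a single day, with no day given per library, whereas the study's methods give a single day after inoculation. If libraries shared a source, the p-values would measure only the spread between these samples.

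NRF2 is a transcription factor that is made continuously and destroyed continuously, because the adaptor KEAP1 hands it to a CUL3 ubiquitin ligase. Oxidants and electrophiles disable KEAP1, and NRF2 then pairs with a small MAF protein and binds antioxidant response elements (AREs) near its target genes. The targets break down heme, import cystine, build and recycle glutathione, and repair oxidized proteins. In endothelium this system is known for protection against oxidants in the blood and at sites of inflammation.

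Of the 10 genes, 5 were higher in NICeCA than in Ctrl TECs and 0 were lower, at an adjusted p under 0.05 in limma (a linear model with a spread shared across genes). Hmox1 and Slc7a11 rose the most, by 3.87-fold and 4.22-fold in mean level. Gsr, Prdx1 and Gclm rose by 1.64-fold to 1.88-fold. Nqo1, Srxn1, Txnrd1, Gclc and Nfe2l2 itself did not pass the test. At an unadjusted p under 0.05, 7 were higher and 0 lower, and limma's voom on the recovered reads called 5 higher and 0 lower. No share of all genes at the unadjusted threshold is given here, so the count of 7 has no background beside it. Over all 12320 genes tested, voom called 1059 higher and 735 lower. In the main limma fit, 5.88% of all genes tested were called higher and 7.68% lower. The median log2 fold change of the 10 genes was 0.55, beside -0.05 over all genes tested. The level of every NICeCA library lay above that of every Ctrl library for 7 of the 10 genes, a separation that 16.5% of all genes tested showed. Levels are in reads scaled to transcript length and library size (RPKM), which allows for gene length, and fold changes in the tests are differences of log2(RPKM + 1), which understate the change of low genes.

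**Figure D1:**
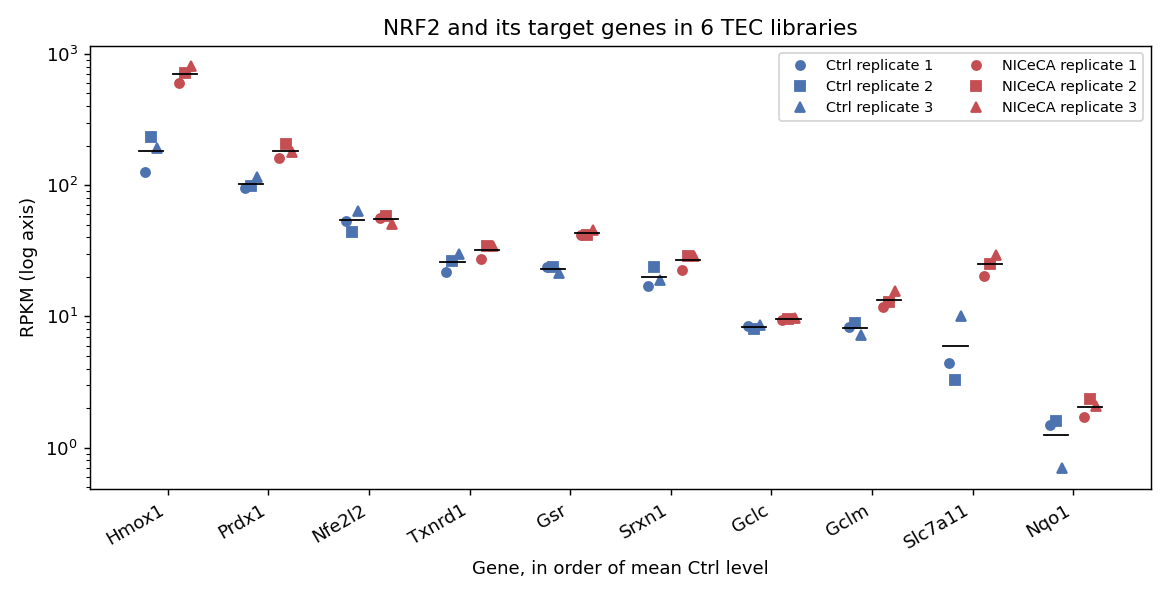
RPKM of NRF2 (Nfe2l2) and its 9 targets on a log axis, with 1 point per library (circle, square and triangle for replicates 1, 2 and 3), Ctrl in blue, NICeCA in red and a line at each group mean. Hmox1 stands highest in both groups, at 126 to 231 RPKM in Ctrl and 600 to 808 in NICeCA, and the 2 groups of Nfe2l2 overlap.

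Each library had between 27793301 and 30769916 reads assigned to RefSeq rows, and every member rested on at least 42 reads per library, the lowest being Nqo1. Hey1, a direct target of Notch signaling, was 2.69 to 5.55 RPKM in Ctrl and 6.05 to 10.6 in NICeCA libraries (adjusted p = 0.0412 in limma). Hey1 was chosen after its value was seen, and other Notch targets are not given here. The Notch1 row, which the transgene copies only in part, was 8.19 to 14.3 RPKM in Ctrl and 12.3 to 13.6 in NICeCA, so the groups overlapped. All 15 endothelial markers were detected, with Cd93 and Pecam1 the most abundant, but markers of other cells were present in every library. Macrophage markers summed to 7172 to 10125 RPKM in Ctrl and 5534 to 9506 in NICeCA libraries, above the 319 to 772 and 697 to 868 RPKM of the endothelial markers.

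Slc7a11 encodes the light chain of the cystine importer, which brings in the amino acid that limits glutathione synthesis. The gene lies on the minus strand at chr3:50364936-50443613 (GRCm38). It was 4.40, 3.30 and 10.1 RPKM in Ctrl libraries 1, 2 and 3 and 20.3, 25.1 and 29.5 RPKM in NICeCA libraries 1, 2 and 3. Every NICeCA library was above every Ctrl library, and Ctrl replicate 3 stood above the other two of its group. The group means were 5.92 ± 3.62 and 24.9 ± 4.57 RPKM (SD, n = 3), which gave a log2 fold change of 2.01 with a standard error of 0.33 and an adjusted p of 0.0192 in limma. The call was lost without NICeCA replicate 1 (adjusted p = 0.0695) and without NICeCA replicate 2 (0.0835), while the log2 fold change stayed between 1.73 and 2.41 with each library left out in turn. The 250 bases before its start site, taken from RefSeq on GRCm38.p6, are shown because they hold 2 copies of the letters TGATGNAA, the amino acid response element (CARE) bound by ATF4 and its partners. Both copies are in capitals, as is a match to the G form of the ARE core, TGAGNNNGC, read on the opposite strand. The G form was added after the windows had been read and occurred in 17.6% of all windows.

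Slc7a11, chr3:50443614-50443863, minus strand: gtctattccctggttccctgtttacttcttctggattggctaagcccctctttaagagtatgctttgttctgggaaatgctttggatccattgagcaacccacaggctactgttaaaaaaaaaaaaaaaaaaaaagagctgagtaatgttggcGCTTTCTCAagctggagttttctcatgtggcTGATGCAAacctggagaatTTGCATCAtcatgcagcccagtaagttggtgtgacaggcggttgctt

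The CARE letters lie 66 bases before the start site as TGATGCAA and 47 bases before it, on the other strand, as TTGCATCA. They occurred in 3.97% of 32851 RefSeq promoter windows of 250 bases before to 50 bases after a start site, searched on both strands, and in no other member with a window. The partner subunit of the importer, Slc3a2, was 45.5, 44.0 and 46.0 RPKM in Ctrl and 82.7, 69.9 and 76.5 RPKM in NICeCA libraries, with no overlap. Its log2 fold change was 0.74 (standard error 0.12, adjusted p = 0.0188 in limma). Within each library the level of Slc7a11 was 0.10, 0.08 and 0.22 times that of Slc3a2 in Ctrl and 0.25, 0.36 and 0.39 times in NICeCA. This ratio does not depend on how libraries are scaled, and its groups did not overlap (difference of 1.47 on the log2 scale, two-sided exact permutation p = 0.1, the smallest that 3 against 3 libraries allow).

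Rows for FANTOM3 transcript models, a set of mouse cDNA clones counted in the same table, gave further readings along Slc7a11. The row over its first exon was 21.0, 14.0 and 43.8 RPKM in Ctrl and 76.5, 101 and 116 RPKM in NICeCA. The 3 rows in its last exon ranged from 1.26 to 4.74 RPKM in Ctrl and from 9.07 to 14.9 RPKM in NICeCA. In all 4 exon rows every NICeCA library lay above every Ctrl library, and the 5′ row was the highest in each library. These rows share reads with the RefSeq row and are no independent measurement.

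**Figure D2:**
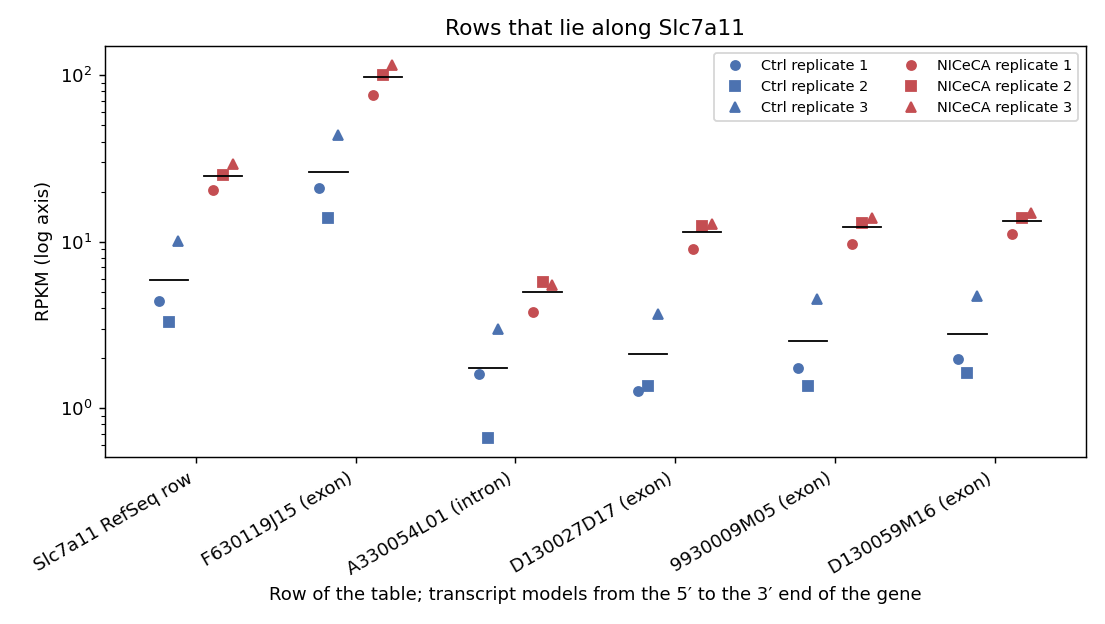
RPKM on a log axis of the Slc7a11 RefSeq row and of 5 FANTOM3 rows placed from its 5′ to its 3′ end, with 1 point per library, Ctrl in blue, NICeCA in red and a line at each group mean. The first-exon row reaches 76.5 to 116 RPKM in NICeCA libraries, and in every row the 3 NICeCA points lie above the 3 Ctrl points.

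Hmox1 encodes heme oxygenase 1, the inducible enzyme that opens heme into biliverdin, iron and carbon monoxide. It lies at chr8:75093618-75100593 (plus strand) and was the most abundant of the 10 genes in both groups. Its level was 126, 231 and 192 RPKM in Ctrl and 600, 716 and 808 RPKM in NICeCA libraries, with no overlap. Mean levels of 183 ± 53.2 and 708 ± 104 RPKM (SD, n = 3) corresponded to a log2 fold change of 1.98 (standard error 0.23, adjusted p = 0.0101 in limma). Only without NICeCA replicate 2, among 15 alternatives, did the adjusted p exceed the threshold, at 0.0526.

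Hmox1 releases iron, and the ferritin subunits that store it moved in the same direction. Fth1, the heavy chain, was 727, 851 and 925 RPKM in Ctrl and 1996, 1926 and 2329 RPKM in NICeCA (log2 fold change 1.32, adjusted p = 0.0101 in limma). Ftl1, the light chain, was 1742, 1993 and 1931 RPKM in Ctrl and 3879, 4243 and 4416 RPKM in NICeCA (log2 fold change 1.15, adjusted p = 0.0109 in limma). Both genes have processed copies elsewhere in the genome, so how their reads were shared between copies is uncertain. Slc48a1, which carries heme out of endosomes, rose from a mean of 21.5 to 33.5 RPKM (log2 fold change 0.62, adjusted p = 0.0326 in limma). In this list of 9 heme and iron genes, all were tested, 3 were called higher and 0 lower, and the median log2 fold change was 0.52. The reductases that follow heme oxygenase, Blvra and Blvrb, had log2 fold changes of 0.52 (adjusted p = 0.0733) and 0.31 (adjusted p = 0.15) and did not pass the test.

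Glutathione is built by glutamate-cysteine ligase, whose catalytic subunit is Gclc and whose modifier subunit is Gclm, and Gsr reduces it again after use. Gsr, at chr8:33653238-33698162 (plus strand), was 23.6, 23.7 and 21.2 RPKM in Ctrl and 41.9, 42.0 and 45.2 RPKM in NICeCA. The spread inside each group was small beside the gap between them. Its log2 fold change was 0.89 with a standard error of 0.11 and an adjusted p of 0.0109 in limma, and the call was lost in 1 of 15 alternatives, without NICeCA replicate 2 (0.0589). A FANTOM3 row in its last exon read 18.5 to 21.7 RPKM in Ctrl and 35.7 to 45.5 RPKM in NICeCA.

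Gclm, at chr3:122245557-122267215 (plus strand), was 8.33, 8.91 and 7.21 RPKM in Ctrl and 11.7, 12.8 and 15.6 RPKM in NICeCA. The groups did not overlap, and the log2 fold change was 0.65 (standard error 0.14, adjusted p = 0.0335 in limma). This call was the least stable of the 5, since it was lost when any single library was left out and when low genes were not filtered (adjusted p = 0.0648). Gclm shares 296 exon bases with Gm17494 on the opposite strand and 244 with the pseudogene Gm6061 on its own strand, and reads over these bases cannot be assigned to it with certainty. Its upstream window is shown because it holds a match to the C form of the ARE core, TGACNNNGC, in capitals and read on the opposite strand.

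Gclm, chr3:122245307-122245556, plus strand: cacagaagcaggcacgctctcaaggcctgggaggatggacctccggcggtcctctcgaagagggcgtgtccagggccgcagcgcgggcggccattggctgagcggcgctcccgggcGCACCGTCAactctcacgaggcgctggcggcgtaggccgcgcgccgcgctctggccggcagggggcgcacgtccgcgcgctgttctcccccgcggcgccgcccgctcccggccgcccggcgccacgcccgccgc

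Gclc, at chr9:77754535-77794489 (plus strand), was 8.51, 7.96 and 8.60 RPKM in Ctrl and 9.35, 9.53 and 9.75 RPKM in NICeCA. Its groups also did not overlap, but the log2 fold change was 0.17 (95% interval -0.07 to 0.42, adjusted p = 0.272 in limma) and did not pass the test, nor did it with voom (0.28) or without the gene length trend (0.27). The ratio of Gclm to Gclc within a library was 0.98, 1.12 and 0.84 in Ctrl and 1.26, 1.35 and 1.60 in NICeCA. The ratios did not overlap, with a difference of 0.52 on the log2 scale (two-sided exact permutation p = 0.1, the smallest possible). The transcript level of the modifier subunit relative to the catalytic subunit was thus higher in each NICeCA library than in any Ctrl library. Reads over the exon bases that Gclm shares with other genes also enter this ratio.

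Of 27 other genes of glutathione synthesis and use, 23 were tested, 5 were called higher and 0 lower, and the median log2 fold change was 0.22. Besides Slc3a2 these were Glrx, Esd, Gpx7 and Gpx4. Glrx, a glutaredoxin that removes glutathione from proteins, was 25.7, 30.7 and 41.2 RPKM in Ctrl and 79.5, 84.3 and 77.7 RPKM in NICeCA (log2 fold change 1.31, adjusted p = 0.0111 in limma). Esd, which frees glutathione from S-formylglutathione, rose from a mean of 33.4 to 75.0 RPKM (log2 fold change 1.15, adjusted p = 0.00971). Gpx4, which reduces lipid peroxides, was 100.2 ± 0.61 RPKM in Ctrl and 135 ± 3.20 RPKM in NICeCA (SD, n = 3; log2 fold change 0.43, adjusted p = 0.0445 in limma). Gpx7 was low, at 1.20 to 1.98 RPKM in Ctrl and 2.94 to 3.57 in NICeCA (log2 fold change 0.73, adjusted p = 0.0328).

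Prdx1 is a peroxiredoxin that removes hydrogen peroxide, Srxn1 repairs peroxiredoxins that have been oxidized too far, and Txnrd1 keeps thioredoxin, their electron donor, reduced. Prdx1, at chr4:116685599-116700000 (plus strand), was 94.4, 98.7 and 115 RPKM in Ctrl and 160.1, 208 and 179 RPKM in NICeCA. There was no overlap, and the log2 fold change was 0.82 (standard error 0.15, adjusted p = 0.0227 in limma). The call was lost without Ctrl replicate 2 (0.0548), NICeCA replicate 1 (0.0695) or NICeCA replicate 2 (0.11), and quantile normalization lowered the log2 fold change to 0.45 (adjusted p = 0.086). Prdx1 overlaps the row AV051173 on the opposite strand, at chr4:116684965-116686022, which was 19.5, 20.5 and 17.1 RPKM in Ctrl and 25.3, 29.5 and 31.7 RPKM in NICeCA (log2 fold change 0.58, adjusted p = 0.0372 in limma). No source used here says if strand was used in counting, and reads where the 2 rows overlap may therefore belong to either. The window before the Prdx1 start site also holds a match to the C form of the ARE core, again on the opposite strand and in capitals.

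Prdx1, chr4:116685349-116685598, plus strand: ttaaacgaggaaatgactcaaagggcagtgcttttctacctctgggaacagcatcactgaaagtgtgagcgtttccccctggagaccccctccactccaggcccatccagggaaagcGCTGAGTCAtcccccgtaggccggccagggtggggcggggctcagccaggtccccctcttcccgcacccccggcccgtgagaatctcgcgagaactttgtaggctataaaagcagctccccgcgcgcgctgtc

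RefSeq windows were matched for 7 of the 10 genes, 9 windows in all, and none was matched for Hmox1, Gclc and Gsr. A member is counted if any of its windows matches, and Txnrd1 has 3, whereas the shares of all windows are per single window. The counts and shares below are therefore not on the same footing. The C form of the ARE core, TGACNNNGC, was found in a window of 5 members (Gclm, Txnrd1, Srxn1, Prdx1 and Nfe2l2), against 12.4% of all 32851 windows. The G form, TGAGNNNGC, was found in 3 (Srxn1, Slc7a11 and Prdx1), against 17.6% of all windows, and either form in 6, against 27.8%. The 2 forms share no match, since they differ in a fixed letter. Srxn1 held 3 of these matches, among them TGAGTCAGC at 45 bases before its start site, although its level did not pass the test. GTGGGAA, the core letters bound by the Notch partner RBPJ, was found in 0 members with a window and in 6.38% of all windows. A match is a run of letters only, and these windows are shorter than the regions in which such elements can act.

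Srxn1, at chr2:152105524-152111376 (plus strand), was 16.9, 23.8 and 18.9 RPKM in Ctrl and 22.6, 29.0 and 28.6 RPKM in NICeCA. The lowest NICeCA library lay below the highest Ctrl library, and the log2 fold change of 0.42 (95% interval 0.04 to 0.79, adjusted p = 0.116 in limma) did not pass after adjustment. Txnrd1, at chr10:82833951-82897724 (plus strand), was 22.0, 26.2 and 29.8 RPKM in Ctrl and 27.5, 34.2 and 34.6 RPKM in NICeCA. Its groups overlapped too, with a log2 fold change of 0.30 (95% interval -0.06 to 0.66, adjusted p = 0.207 in limma), which became 0.19 without Ctrl replicate 1 and 0.16 under quantile normalization. The ratio of Gsr to Txnrd1, 2 related reductases that draw on NADPH, was 1.07, 0.90 and 0.71 in Ctrl and 1.52, 1.23 and 1.30 in NICeCA, with no overlap and a difference of 0.61 on the log2 scale (two-sided exact permutation p = 0.1). The ratio of Prdx1 to Srxn1 was 5.57, 4.14 and 6.06 in Ctrl and 7.08, 7.15 and 6.25 in NICeCA, with a difference of 0.39 on the log2 scale (two-sided exact permutation p = 0.1). These 4 ratios were chosen with the members' values known, and 0.1 is the least that any of them could give.

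The list of 15 other thioredoxin and peroxiredoxin genes was tested in full, and 4 were called higher and 0 lower, with a median log2 fold change of 0.18. Prdx6, which also acts on oxidized phospholipids, was 32.3, 37.1 and 49.2 RPKM in Ctrl and 94.7, 101 and 109 RPKM in NICeCA (log2 fold change 1.36, adjusted p = 0.0109 in limma). Prdx5 rose from 200.3 ± 6.74 to 347 ± 15.7 RPKM (SD, n = 3; log2 fold change 0.79, adjusted p = 0.0161). The methionine sulfoxide reductases Msra and Msrb1 rose by 0.67 (adjusted p = 0.0209) and 0.66 (adjusted p = 0.0329) on the log2 scale. Txn1, thioredoxin itself, had a log2 fold change of 0.39 (adjusted p = 0.0813) and was not called.

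Nqo1, a quinone reductase that is often used as the readout of NRF2, was the lowest of the 10 genes. It lies on the minus strand at chr8:107388225-107403205 and was 1.49, 1.59 and 0.69 RPKM in Ctrl and 1.71, 2.34 and 2.09 RPKM in NICeCA, on 42 to 128 reads per library. The groups did not overlap, but the gap between the closest libraries was narrow. The log2 fold change was 0.45 (95% interval 0.0054 to 0.90, adjusted p = 0.137 in limma), and on the RPKM + 1 scale so low a level is compressed. It was 0.73 with a pseudocount of 0.1 RPKM, 0.87 with voom and 0.26 without Ctrl replicate 3, with no call in any (adjusted p = 0.151, 0.13 and 0.27). Among 13 other genes of quinone and carbonyl detoxification, 12 were tested, and Ptgr1 was the only one called (median log2 fold change 0.12). Ptgr1, which reduces reactive lipid aldehydes and ketones, was 6.07, 6.65 and 7.07 RPKM in Ctrl and 13.6, 14.9 and 17.6 RPKM in NICeCA (log2 fold change 1.10, adjusted p = 0.0105 in limma).

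Nfe2l2, on the minus strand at chr2:75675519-75704641, was 53.5, 44.1 and 63.9 RPKM in Ctrl and 56.4, 57.8 and 50.4 RPKM in NICeCA. The NICeCA libraries fell inside the Ctrl range. The log2 fold change was 0.04 with a 95% interval of -0.33 to 0.41 (adjusted p = 0.877 in limma), and its sign turned under quantile normalization (-0.22) and without Ctrl replicate 2 (-0.094). These are transcript levels, and NRF2 is controlled mainly through the stability of its protein, which was not measured.

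**Figure D3:**
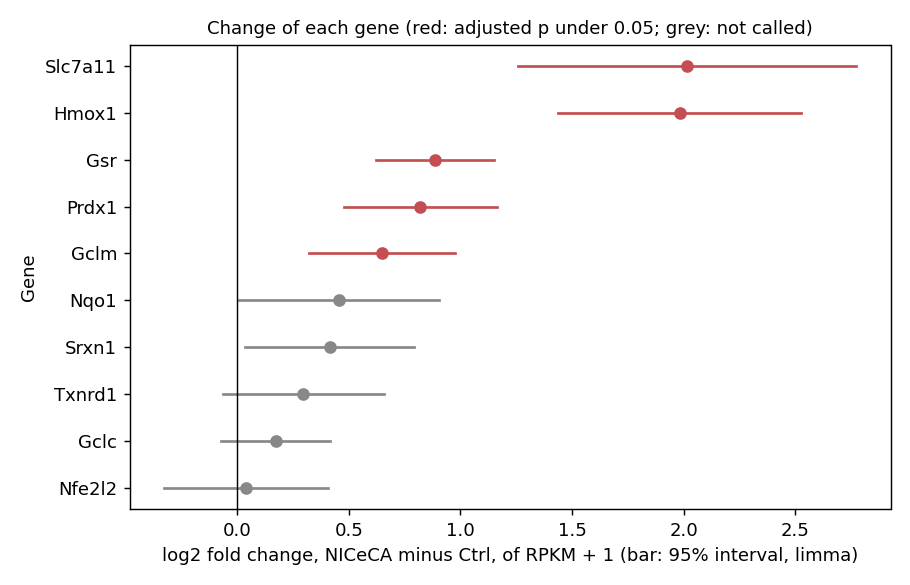
Log2 fold change of each gene (NICeCA minus Ctrl, of RPKM + 1) with its unadjusted 95% interval from limma, in red for the 5 genes with an adjusted p under 0.05 and in grey for the rest. Slc7a11 (2.01) and Hmox1 (1.98) lie farthest to the right, and the interval of Nfe2l2 runs from -0.33 to 0.41.

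Ordered by mean level in Ctrl, Hmox1 was followed by Prdx1 and Nfe2l2, each with a range apart from the next. Txnrd1, Gsr and Srxn1 came next and overlapped their neighbours, as did Gclc, Gclm and Slc7a11 after them, and Nqo1 was last. In NICeCA the first 3 kept their places. Gsr stood above Txnrd1 with no overlap there, Slc7a11 overlapped Srxn1 and lay apart from Gclm, and Gclm lay apart from Gclc. The summed level of the 10 genes was 359, 469 and 467 RPKM in Ctrl and 952, 1136 and 1203 RPKM in NICeCA, and Hmox1 made up most of the sum in NICeCA.

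The 12 regulators and partners of NRF2 were all tested, and 3 were called higher and 0 lower, with a median log2 fold change of 0.07. Maff, a small MAF protein, was 13.6, 13.1 and 17.4 RPKM in Ctrl and 29.5, 33.9 and 36.8 RPKM in NICeCA (log2 fold change 1.14, adjusted p = 0.0111 in limma). Sqstm1, the autophagy receptor that can hold KEAP1 away from NRF2 and is itself an NRF2 target, rose from 153 ± 2.52 to 241 ± 16.6 RPKM (SD, n = 3; log2 fold change 0.65, adjusted p = 0.0242). Mafk rose by 0.45 on the log2 scale (adjusted p = 0.049). Of the 12, 7 had a log2 fold change above 0 and 5 below. Mafg, another small MAF protein, was at -0.24 (adjusted p = 0.269 in limma) and was not called. Btrc (-0.40, adjusted p = 0.0781) and Gsk3b (-0.32, adjusted p = 0.123) were not called either, although every NICeCA library lay below every Ctrl library. Keap1 and Bach1, the adaptor and the repressor that competes at AREs, had log2 fold changes of -0.04 (adjusted p = 0.854) and 0.08 (adjusted p = 0.777) and were not called.

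Other lists held genes that supply NADPH, use it to make superoxide, or remove superoxide. Taldo1, of the pentose phosphate pathway, was the single gene called among 7 of NADPH supply (log2 fold change 0.58, adjusted p = 0.0418 in limma), and the list median was 0.11. Sod1, the cytosolic superoxide dismutase, was the single gene called among 3 tested of 4 for superoxide and peroxide removal (log2 fold change 0.49, adjusted p = 0.046), with a list median of 0.45. No gene of 7 for the NADPH oxidase, a source of superoxide in phagocytes and vessels, was called in limma, and the largest log2 fold change was that of Cyba at 0.54 (adjusted p = 0.0802), with a list median of 0.13. At an unadjusted p under 0.05, 1 of these 7 was higher, with no share of all genes beside it, and voom called 0.

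ATF4, the factor of the amino acid response, also acts on Slc7a11. In a list of 10 of its genes, 8 were tested, 3 were called higher and 1 lower, and the median log2 fold change was -0.01. Ddit3, which encodes CHOP, was 16.0, 18.7 and 17.5 RPKM in Ctrl and 35.8, 31.6 and 42.5 RPKM in NICeCA (log2 fold change 1.03, adjusted p = 0.0122 in limma). Atf3 rose by 0.70 (adjusted p = 0.0281) and Atf4 itself by 0.61 (adjusted p = 0.0278) on the log2 scale. Slc7a5, an importer of large neutral amino acids, fell from a mean of 16.1 to 9.19 RPKM (log2 fold change -0.74, adjusted p = 0.0467). The remaining tested genes of this list were not called (adjusted p from 0.162 to 0.494 in limma). Their log2 fold changes were 0.20 for Trib3, -0.23 for Asns, -0.29 for Psat1 and -0.54 for Phgdh. Across the 9 lists together, 96 of 104 genes were tested, 21 were called higher and 1 lower, and the median log2 fold change was 0.20. At an unadjusted p under 0.05, 33 were higher and 4 lower, and voom called 25 higher and 0 lower. Over all 12320 genes tested, voom called 1059 higher and 735 lower. No share of all genes at the unadjusted threshold is given here, so the counts of 33 and 4 have no background beside them.

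**Figure D4:**
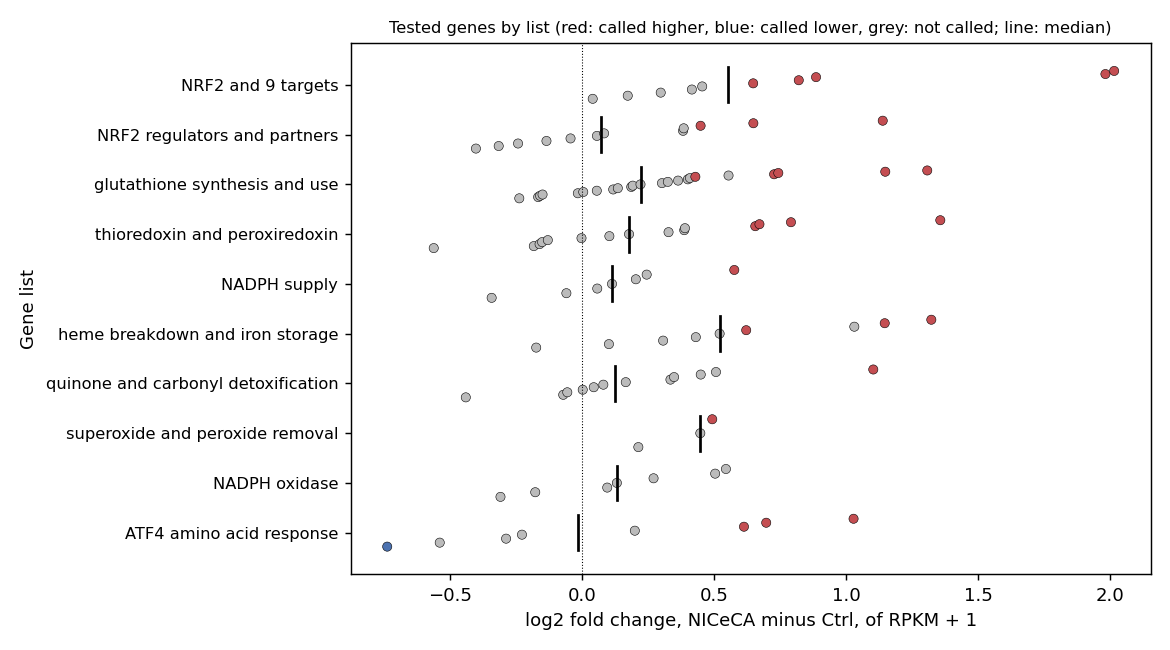
Log2 fold change (NICeCA minus Ctrl, of RPKM + 1) of each tested gene by list, in red for genes called higher, blue for genes called lower and grey for genes not called, with a line at each list's median. The median of NRF2 and its 9 targets is 0.55, that of the heme and iron list 0.52, and those of the other lists run from -0.01 to 0.45.

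Markers of other cells moved with the groups as well. Neutrophil markers summed to 162, 240 and 340 RPKM in Ctrl and 725, 991 and 1848 RPKM in NICeCA, and 9 of 10 tested of 12 listed were called higher and 0 lower, with a median log2 fold change of 2.00. The most abundant were S100a9, at 34.4 to 118 RPKM in Ctrl against 194 to 742 in NICeCA, and S100a8, at 29.7 to 93.9 against 196 to 660 RPKM. Within NICeCA, replicate 3 was the highest in this sum and also in Hmox1, Slc7a11, Gsr, Gclm, Gclc and Txnrd1, while Prdx1, Srxn1, Nqo1 and Nfe2l2 were highest in replicate 2. Within Ctrl, replicate 3 was again the highest in this sum, and in Slc7a11, Prdx1, Gclc, Txnrd1 and Nfe2l2. Hmox1, Gsr, Gclm, Srxn1 and Nqo1 were highest in Ctrl replicate 2. Among macrophage markers 3 of 12 were called higher (Cd68, Cd14 and Msr1) and 0 lower, with a median log2 fold change of 0.18. The log2 fold change was above 0 for 6 of the 12 and below 0 for 6. Those below 0 were C1qa, C1qb, C1qc, Csf1r, Adgre1 and Lyz2, none of them called. Lyz2, the most abundant macrophage marker, was 3635 to 5555 RPKM in Ctrl and 2611 to 4562 RPKM in NICeCA, and Cd14 was 451 to 687 against 1083 to 1240 RPKM. Macrophages and neutrophils are known to express Hmox1, ferritin and several other genes described here. In a bulk sample a change in the number of such cells and a change in RNA per cell cannot be told apart, and the part of these markers in the results was not tested.

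All 15 endothelial markers had a log2 fold change above 0, with a median of 0.66, beside 0.55 for the 10 NRF2 genes. Of them 2 were called higher and 0 lower, with Ctrl replicate 1 at 772 RPKM in sum and the other Ctrl libraries at 319 and 414. Cd93 was 61.4 to 113 RPKM in Ctrl and 147 to 159 in NICeCA, and Pecam1 was 47.5 to 135 against 125 to 154 RPKM. Without Ctrl replicate 1, 4 of the 5 called NRF2 genes stayed called, all but Gclm. This leaves Ctrl at 319 and 414 RPKM in summed endothelial markers and is no test of the endothelial share. Fibroblast markers, led by Col3a1 and Dcn, summed to 339 to 570 RPKM in Ctrl and 164 to 330 RPKM in NICeCA, and 3 of 7 tested of 8 were lower and 0 higher. Pericyte markers, led by Rgs5 and Tagln, summed to 36.1 to 52.3 RPKM in Ctrl and 75.3 to 141 RPKM in NICeCA, and 3 of 7 tested of 8 were higher and 0 lower, with a median log2 fold change of 1.08. Lymphocyte markers, led by Nkg7 and Gzmb, summed to 38.9 to 57.3 against 37.5 to 52.1 RPKM, with 1 of 8 higher. Epithelial and tumor cell markers, led by Cdh1 and Krt18, summed to 6.71 to 12.3 against 6.16 to 8.57 RPKM, with 2 of 6 above the filter and 1 of these, Krt18, lower. The part of these lists in the results was not tested either.

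**Figure D5:**
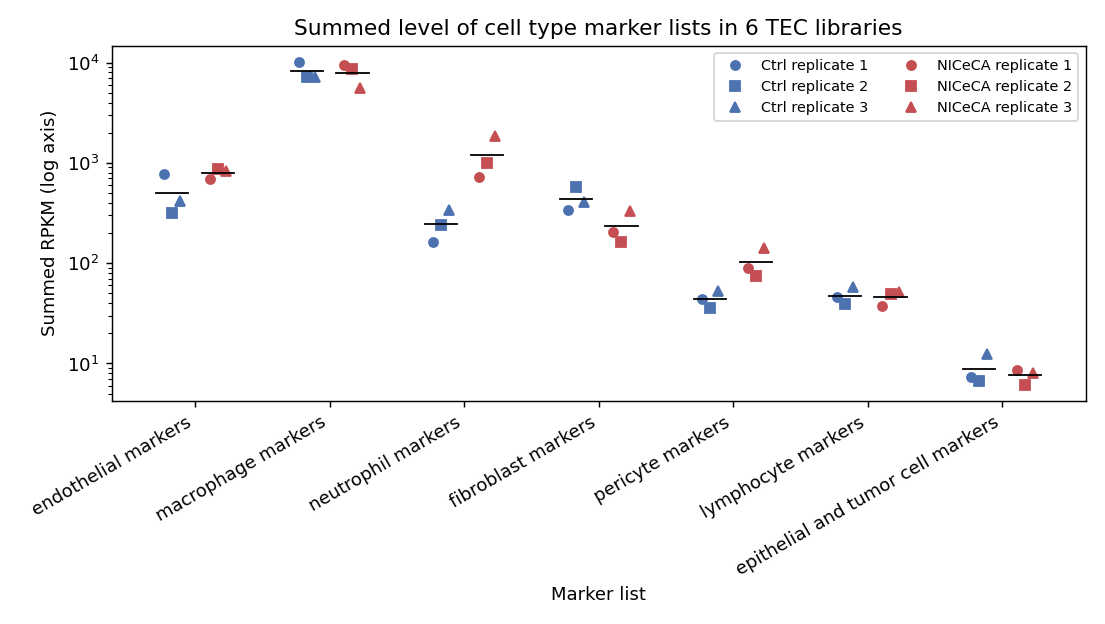
Summed RPKM of each list of cell type markers on a log axis, with 1 point per library, Ctrl in blue, NICeCA in red and a line at each group mean. The neutrophil sum is 162 to 340 RPKM in Ctrl and 725 to 1848 in NICeCA libraries, and the macrophage sum, 5534 to 10125 RPKM, is the highest of the 7 lists in every library.

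For each of the 5 called genes, the 2 genes with the most similar profile over the 6 libraries were sought by Pearson's r of log2(RPKM + 1). These values only describe 6 libraries that fall into 2 groups. An r over 0.99 was reached by 4 genes with Prdx1, 2 with Gsr, 1 with Gclm and 0 with Hmox1. Slc7a11 was most like Ptgs2 (r = 0.996), the inducible cyclooxygenase, and Wsb1 (0.996), and 23 genes had an r over 0.99 with it. Ptgs2 was 37.2, 28.4 and 65.1 RPKM in Ctrl and 152, 198 and 227 RPKM in NICeCA, with Ctrl replicate 3 the highest of its group as for Slc7a11. Hmox1 was most like Csf3 (0.989), the neutrophil growth factor, and Dynlrb1 (0.988). Csf3 was 0.66, 1.03 and 1.17 RPKM in Ctrl and 4.10, 4.63 and 5.36 RPKM in NICeCA. Gsr was most like Gadd45a (0.996), a stress gene of the growth arrest family, and E230016M11Rik (0.993). Prdx1 was most like Commd3 (0.994) and the cytokine gene Tnf (0.993). Gclm was most like AV051173 (0.992), the row that overlaps Prdx1, and Gstm1 (0.986), a glutathione transferase.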

How the data were processed

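Bulk RNA-seq of CD31-captured TECs from LLC tumors (3 Ctrl and 3 NICeCA libraries) was analysed from a table of RPKM values deposited by the authors. The submitters' processing notes name TopHat2 and mm9, but row positions are those of GRCm38: of 21665 RefSeq rows matched by symbol, 99.3% overlapped the GRCm38 gene. The counting tool and strand setting were not given in the sources used here. Columns were matched to libraries through the labels. Another 27 rows carry names turned into dates.

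RefSeq rows with a mean of at least 1 RPKM (12320) were compared as log2(RPKM + 1) with limma 3.58.1 in R 4.3.3 (mean-variance trend, two-sided, Benjamini-Hochberg adjustment, adjusted p under 0.05). RPKM values were whole multiples of 1 read for 100.0% of values under 1000 reads (tolerance 0.05 reads). The reads counted per row were thus recovered: 27793301 to 30769916 on RefSeq rows per library. The library size implied by RPKM matched, to within a few reads, the sum over all rows, 35303191 to 39823498 reads. Rows that overlap can count a read more than once in this sum, so it is not the sequencing depth. The exact permutation test has 20 assignments and a smallest two-sided p of 0.1. In all, 15 alternatives were run, among them voom on the recovered reads. The procedure was tested on simulated data.

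The members and lists were chosen with earlier results of these data known. Named genes are the members, the called genes and the largest change of each pathway list, the 2 most abundant genes of each marker list and the 2 most similar genes of each called member. Other genes named (Hey1, Notch1, Blvra, Blvrb, Txn1, Keap1, Bach1, Mafg, Btrc, Gsk3b, Trib3, Asns, Psat1, Phgdh, Cd68, Msr1, C1qa, C1qb, C1qc, Csf1r and Adgre1) were chosen after their values were seen. The G form of the ARE was added after the windows had been read. Ly6g was not analysed here.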

Additional observations from a re-analysis of the deposited data

Results flagged for a closer look

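An intronic FANTOM3 row inside Slc7a11, A330054L01 (chr3:50400282-50404285, GRCm38, same strand as the gene), which is plotted with the rows of this gene but entered no test, read 1.61, 0.66 and 2.98 RPKM in Ctrl and 3.78, 5.72 and 5.50 RPKM in NICeCA libraries. It was singled out because its mean of 5.0 RPKM in NICeCA lay above the 1.75 RPKM of the control libraries, and the groups did not overlap. The row lies outside the exons of Slc7a11, and the ratio of its group means was 2.86, beside 4.22 for the RefSeq row. These rows were not part of the test across genes, and the difference between the ratios was not tested.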

How the results depend on the processing

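Of 10 NRF2 genes, 5 were called higher; with each library left out in turn the count ran from 0 (without NICeCA replicate 2) to 4, with 2 without NICeCA replicate 1 and 3 without Ctrl replicate 2. Apart from the replicate block, given below, it stayed within 1.5 times in the other alternatives, and no member was called lower in any. Hmox1, Slc7a11, Gsr, Prdx1 and Gclm were higher in all 15 alternatives in value, and the remaining members, of which Nqo1 falls below a mean of 5 RPKM, were called in none. Nfe2l2 ran from -0.094 to 0.17 with a library left out, changing sign without Ctrl replicate 2, and changed sign under quantile normalization (-0.22). Among the other pathway genes, 21 higher calls became 13 with no filter and 12 under quantile normalization, and 0 to 22 with a library left out. The 1 lower call, Slc7a5, became 0 with no filter, trimmed mean scaling, quantile normalization, voom and removal of the gene length trend, and 0 to 1 with a library left out. Over all tested genes, 725 higher calls became 260 with no filter and 446 under quantile normalization, and 17 to 911 with a library left out; 946 lower calls became 105 with no filter, 579 at a mean of at least 5 RPKM, 325 under quantile normalization and 206 without the length trend, and 1 to 832 with a library left out. Higher calls made up 43.4% of all calls as reported, 59.4% with trimmed mean scaling, 57.8% under quantile normalization, 59.0% with voom and 74.1% without the length trend. The cause of these shifts was not tested, beyond the fewer samples or other number of genes tested that a setting brings.

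The same replicate numbers occur in both groups, and the study's methods speak of pairs of mice. The deviations of same-numbered libraries from their group means correlated at 0.12, -0.34 and -0.18. With 3 libraries per group, such values cannot decide if the numbers pair the samples. With the replicate number as a block, 3 members were called higher, Hmox1, Slc7a11 and Gsr, with 9 other pathway genes higher and 0 lower, and 327 higher and 209 lower over all genes. Depth limits Nqo1 most, at 42 to 128 reads per library.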
